A study of Mus musculus with 61 samples.

Results

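The genes described here encode the hormones of the anterior and intermediate pituitary (Gh, Prl, Tshb, Lhb, Fshb, Cga and Pomc) and the pituitary receptors for 2 releasing hormones (Ghrhr and Gnrhr). They were chosen by name, and their levels were read from every probe set annotated to exactly 1 of them, which gave 15 of the 45037 probe sets of the array for the 9 genes, out of 18193 genes measured by a probe set of their own. RNA of the pituitary gland, the bnst (bed nucleus of the stria terminalis), the hippocampus, the hypothalamus and the periaqueductal gray (pag) was hybridized to 61 one-colour Affymetrix arrays. The mice were males, 8 weeks old and kept singly before dissection, with no treatment named in the sources used here. They were of 6 inbred strains, which were A/J, C57BL/6J, FVB/NJ, DBA/2J, C3H/HeJ and 129S6/SvEvTac. The last came from Taconic and the other 5 from Jackson, so for 129S6/SvEvTac strain and supplier cannot be told apart. Each of the 30 groups of strain and region had 2 arrays, except C3H/HeJ bnst with 3, so that 12 arrays came from the gland and 49 from the brain. An array of the gland held RNA pooled from 5 mice, one of the hippocampus RNA of 1 mouse, one of the hypothalamus or pag RNA of 1 to 2 mice and one of the bnst RNA of 2 to 3 mice. The paper states that hippocampus tissue was frozen at once, whereas the smaller structures went into RNA Later. For the hippocampus, region and storage therefore cannot be told apart. An inbred strain is in effect 1 genotype, and every mouse here was male, so the results hold for these genotypes and this sex.

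The gland releases its hormones under the control of the hypothalamus. Growth hormone (Gh) comes from somatotrophs, which carry the receptor for growth hormone-releasing hormone (Ghrhr), and prolactin (Prl) comes from lactotrophs. Luteinizing hormone, follicle-stimulating hormone and thyroid-stimulating hormone are pairs of a common alpha subunit (Cga) with a beta subunit of their own (Lhb, Fshb and Tshb). The gonadotrophs that make the gonadotropins carry the receptor for gonadotropin-releasing hormone (Gnrhr). Pomc encodes the precursor of corticotropin, made by corticotrophs of the anterior lobe, and of melanotropins, made by melanotrophs of the intermediate lobe, and it is also active in neurons of the arcuate nucleus of the hypothalamus. The pars tuberalis, a sheet of pituitary cells on the stalk below the hypothalamus, is known to express Cga and Tshb.

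The promoters of the members give the setting of the letters around their start sites, and 7 of the 9 genes matched a RefSeq promoter of 250 bases before to 50 bases after the start on GRCm38.p6. Gh and Ghrhr are named only. The motifs were searched on both strands. TATAAA, the letters of the TATA box, lay at any position in 7 of the 7 windows, against 13.6% of all 32851 promoters. ATGNATA, the site of the pituitary factor POU1F1, lay in 1 of the 7 (8.84% of all), and AAGGTCA, the site of the gonadotroph factor NR5A1, lay in 2 of the 7 (4.72% of all), those of Lhb and Pomc. TAATCC of PITX1 (7.06% of all) and TCACACC of TBX19 (3.98% of all) lay in none of the 7. The windows of the 5 genes on which the results below turn are shown with every match in capitals, from chr13:27057320-27057619 (plus strand) for Prl, chr12:3954695-3954994 (plus strand) for Pomc, chr4:34893529-34893828 (plus strand) for Cga, chr3:102782665-102782964 (minus strand) for Tshb and chr5:86197852-86198151 (minus strand) for Gnrhr, each 5′ to 3′ on the strand of its gene.
Prl: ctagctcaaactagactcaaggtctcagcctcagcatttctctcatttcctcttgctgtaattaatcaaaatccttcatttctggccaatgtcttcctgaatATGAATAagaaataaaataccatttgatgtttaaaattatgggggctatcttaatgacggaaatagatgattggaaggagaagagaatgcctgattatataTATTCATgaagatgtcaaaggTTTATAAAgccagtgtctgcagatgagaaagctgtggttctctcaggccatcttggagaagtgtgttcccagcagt
Pomc: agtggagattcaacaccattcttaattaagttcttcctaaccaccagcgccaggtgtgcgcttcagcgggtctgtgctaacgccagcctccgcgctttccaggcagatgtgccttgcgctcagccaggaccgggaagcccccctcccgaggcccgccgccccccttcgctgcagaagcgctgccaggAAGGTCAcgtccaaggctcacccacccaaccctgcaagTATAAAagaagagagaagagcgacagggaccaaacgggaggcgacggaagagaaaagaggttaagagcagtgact
Cga: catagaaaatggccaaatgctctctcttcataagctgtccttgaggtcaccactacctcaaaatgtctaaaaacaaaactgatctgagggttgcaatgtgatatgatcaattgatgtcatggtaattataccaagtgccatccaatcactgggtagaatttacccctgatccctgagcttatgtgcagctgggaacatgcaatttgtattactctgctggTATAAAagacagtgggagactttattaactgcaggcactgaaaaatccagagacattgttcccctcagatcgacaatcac
Tshb: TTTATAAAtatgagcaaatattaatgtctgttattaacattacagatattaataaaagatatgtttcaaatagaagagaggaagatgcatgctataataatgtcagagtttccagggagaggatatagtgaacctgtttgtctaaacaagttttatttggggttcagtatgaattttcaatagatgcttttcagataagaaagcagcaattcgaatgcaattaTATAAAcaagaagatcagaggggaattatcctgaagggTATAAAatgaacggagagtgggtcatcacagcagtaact
Gnrhr: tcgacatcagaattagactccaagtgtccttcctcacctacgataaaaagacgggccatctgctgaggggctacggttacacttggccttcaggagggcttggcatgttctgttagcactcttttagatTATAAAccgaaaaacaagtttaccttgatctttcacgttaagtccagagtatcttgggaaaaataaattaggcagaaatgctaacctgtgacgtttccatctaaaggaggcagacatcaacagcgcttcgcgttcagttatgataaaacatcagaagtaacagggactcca
In Prl the capitals mark ATGNATA at -148 and, on the other strand, at -47, and TATAAA at -24 overlapping a match on the other strand at -26. In Pomc they mark AAGGTCA at -63 and TATAAA at -25. TATAAA began at -30 in Cga and at -27, 11 and -248 in Tshb, where the last overlapped a match on the other strand at -250. In Gnrhr the single match began at -121. A match is a description of the letters and not a bound site.

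The signals are scaled intensities on a linear scale, and the level of 1 probe set was not set against that of another. Before log2 was taken, lower values were raised to a floor of 12.8, the 20th percentile of all signals, and a call means an adjusted p under 0.05 over all probe sets tested. Array means lay between 180 and 201, replicate arrays of a group correlated at 0.974 or more, and those of the gland at 0.991 or more. The gland arrays carried the label's markers. Of 15 measured transcription factors of pituitary lineages, 11 were higher in the gland than in the brain and 1 was lower (median log2 difference 2.04, against 0.10 over all probe sets), with Six6 at 5.33, Lhx3 at 5.32, Tbx19 at 4.83 and Pitx1 at 4.43, while all 8 neuronal and all 5 myelin genes were lower. The summed signal of the 5 myelin genes was 186 to 395 on 11 gland arrays and 4661 on 1 C3H/HeJ gland array, against 7588 to 14473 on brain arrays. The hypothalamus arrays had 9 of 10 measured releasing and inhibiting factors higher than the other 3 brain regions and none lower. In tissue of mixed cells, fewer cells of a type and less RNA per cell cannot be told apart.

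The first comparison asked how far these genes belong to the gland. All 9 genes were higher in the pituitary gland than in the brain, and for 14 of the 15 probe sets every gland array lay above every brain array, a separation seen in 7.32% of all probe sets. The exception was 1 of the 3 Gnrhr probe sets. All 15 were called higher (limma, adjusted p under 0.05), against 40.6% of all probe sets tested. The brain signals differed in kind between the genes, from values at the floor to values that reached far towards the gland, and the plot of signals by region shows both.

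**Figure D1:**
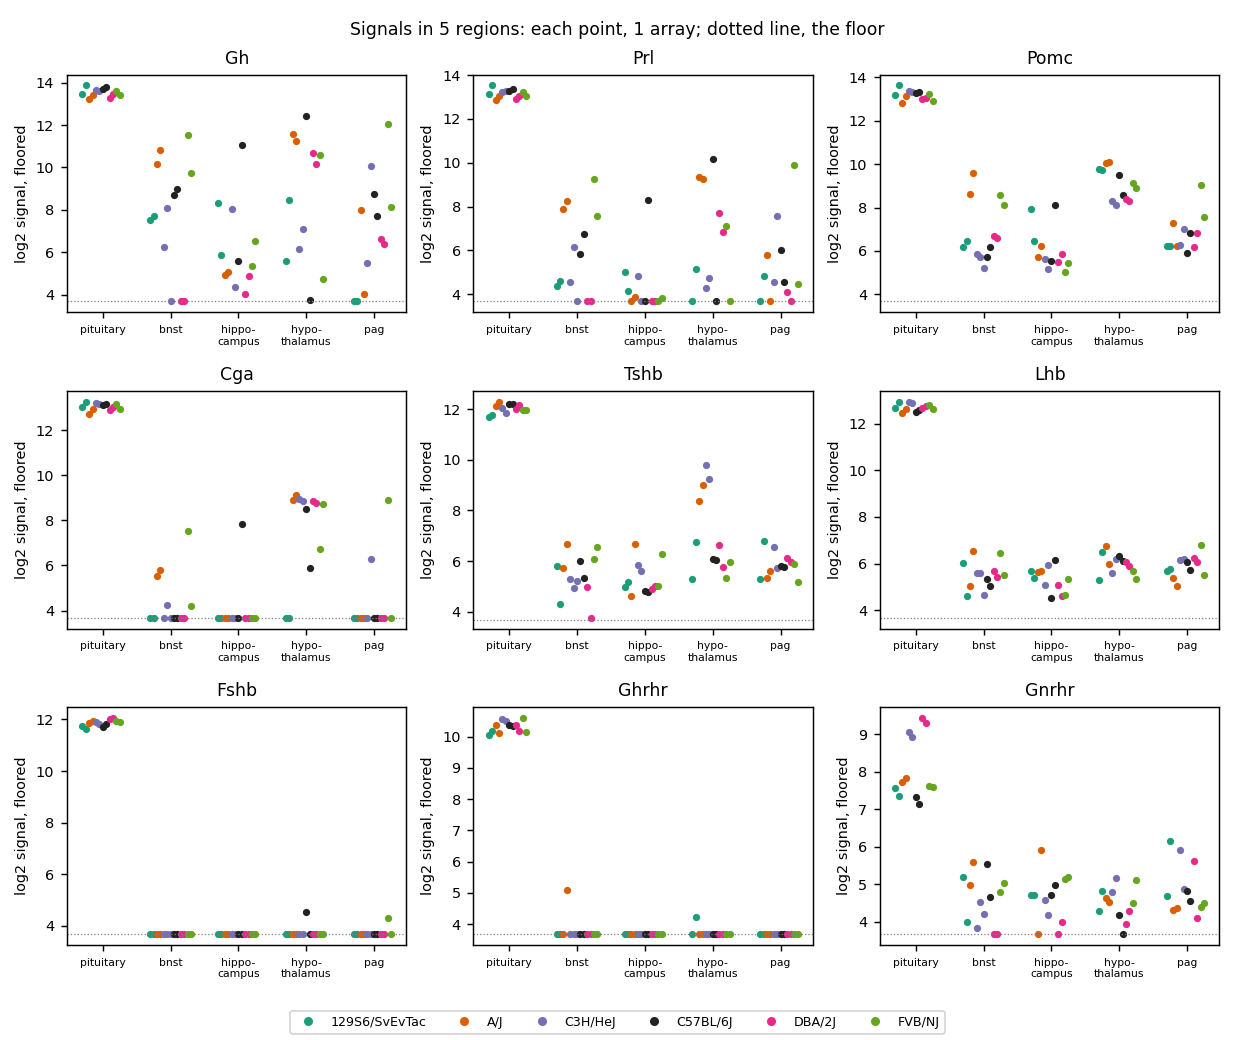
Log2 signal, with values under 12.8 raised to it (dotted line), of 1 probe set for each of the 9 genes on 61 arrays by region, each point an array coloured by strain. Fshb and Ghrhr stay at the floor on all but 2 brain arrays each, whereas Gh spreads over the brain arrays between -6.04 and 5421 before the floor was set.

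Fshb and Ghrhr were at the floor on nearly all brain arrays. Fshb had signals of 3188, 3769 and 4264 (lowest, median and highest of 12) in the gland, against -12.4, -0.88 and 23.0 in the brain, where 2 of 49 arrays rose above the floor. Ghrhr, the receptor through which growth hormone-releasing hormone acts on somatotrophs, had 1069, 1314 and 1554 in the gland, against -21.0, -2.91 and 33.9 in the brain, where again 2 of 49 arrays rose above the floor. The groups did not overlap in either gene. The log2 differences were 8.16 (SE 0.06) and 6.61 (SE 0.08), and both are limited by the floor on the brain side. Lhb, the beta subunit of luteinizing hormone, had 5600, 6426 and 7832 in the gland, against 22.7, 51.4 and 112 in the brain, a log2 difference of 7.03 (SE 0.15), with a low signal above the floor on all 49 brain arrays. The Gnrhr probe set 1421665_a_at, for the receptor of gonadotrophs, had 142, 205 and 691 in the gland, against 8.07, 24.9 and 71.5 in the brain (log2 difference 3.42, SE 0.16).

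The other 5 genes had brain arrays with much higher signals. Gh, by the probe set 1460613_x_at, had 9669, 11799 and 14994 in the gland, against -6.04, 181 and 5421 in the brain (log2 difference 6.13, SE 0.61), and 26 of the 49 brain arrays were above a signal of 100. Prl had 7362, 9265 and 11823 in the gland, against -3.10, 24.02 and 1167 in the brain (7.69, SE 0.46), with 14 brain arrays above 100. The highest brain arrays of both genes remained below the lowest gland array. Pomc, by 1433800_a_at, had 7147, 9349.5 and 12607 in the gland, against 32.5, 103 and 1080.0 in the brain (5.95, SE 0.16). Cga had 6865, 8701 and 9910 in the gland, against -23.3, 5.48 and 567 in the brain (7.99, SE 0.34), and only 18 brain arrays were above the floor. Tshb had 3291, 4153 and 5046 in the gland, against 13.5, 54.2 and 884 in the brain (6.12, SE 0.17). None of these 5 genes overlapped between gland and brain. The other 3 Gh probe sets differed by 5.40 to 7.04 and the second Pomc probe set by 7.45. The largest SE, 0.61 to 0.63, were those of the 4 Gh probe sets, whose brain arrays of 1 group often differed widely.

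The next comparison was that of the 6 strains within the gland. Across all probe sets 23.2% were called for a difference among strains in the gland (limma F test, Benjamini-Hochberg adjusted over 42843 probe sets), and 3 of the 15 probe sets of these genes were, a share no larger than that background. They were 2 of Gnrhr and that of Tshb. The ratio of highest to lowest strain mean was 4.36 for 1421665_a_at of Gnrhr, whereas that of every hormone gene was 1.26 to 1.43. No ratio is given for 1427731_at of Gnrhr, whose low strains lay within the range of the brain arrays. For a single strain against the other 5, 2 or 3 of the 15 probe sets were called in each strain, of which 2 were always these Gnrhr probe sets. The background was 7.01% of probe sets for 129S6/SvEvTac, 5.06% for A/J, 8.12% for C3H/HeJ, 13.3% for C57BL/6J, 6.64% for DBA/2J and 5.58% for FVB/NJ. Of the 225 pairs of strains and probe sets 22 were called, against 7.76% over all probe sets. The pairs were 9 of 15 for each of the same Gnrhr probe sets, 2 for Tshb and 2 for Fshb.

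The Gnrhr probe set 1421665_a_at was high in DBA/2J and C3H/HeJ. Its signals were 691 and 634 in DBA/2J and 529 and 488 in C3H/HeJ, against 213 and 227 in A/J, 198 and 194 in FVB/NJ, 191 and 164 in 129S6/SvEvTac and 162 and 142 in C57BL/6J. Every array of the first pair of strains lay above every array of the other 4, among which neighbours in the order did not differ by the test of the pair. DBA/2J was 1.55 above the other 5 strains on the log2 scale (SE 0.08, adjusted p = 9.00e-06) and C3H/HeJ 1.09 above them (adjusted p = 9.88e-05), whereas C57BL/6J was lowest at -0.998 (adjusted p = 1.31e-04). Strain by strain, DBA/2J and C3H/HeJ each differed from the other 4 but not from each other (C3H/HeJ minus DBA/2J -0.38, adjusted p = 0.0650), and A/J was 0.53 above C57BL/6J (SE 0.10, adjusted p = 0.0115).

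The probe set 1427731_at of the same gene ordered the strains in another way. Its signals were 347 and 341 in FVB/NJ, 298 and 310.3 in A/J and 231 and 212 in C57BL/6J, against 25.6 and 19.1 in DBA/2J, 22.3 and 22.1 in C3H/HeJ and 15.8 and 24.1 in 129S6/SvEvTac. The strains fell into a high and a low set with no overlap, and the 6 arrays of the low set lay within the range of the brain arrays, 5.38 to 42.3. All 9 pairs across these sets were called and none of the 6 pairs within them, with FVB/NJ minus the other 5 strains at 2.57 (SE 0.19, adjusted p = 6.75e-05) and 129S6/SvEvTac minus the other 5 at -2.39 (adjusted p = 9.39e-05). The sizes of these differences depend on the background of the low set. DBA/2J and C3H/HeJ, which were highest by 1421665_a_at, were thus in the low set here, at -2.18 and -2.17. The third probe set, 1427694_at, was dim and variable, with 119 and 156 in DBA/2J at the top and 65.1 and 63.9 in 129S6/SvEvTac at the bottom, and it was not called (adjusted p = 0.164). Over the 12 gland arrays the 2 called probe sets correlated at -0.62 (Spearman rho -0.24), a value that rests on 6 strains with shared arrays. The probe sets of Gnrhr therefore disagree on the order of the strains, and the values hold for each probe set and not for the gene. The sequences of the probes were not used here.

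**Figure D2:**
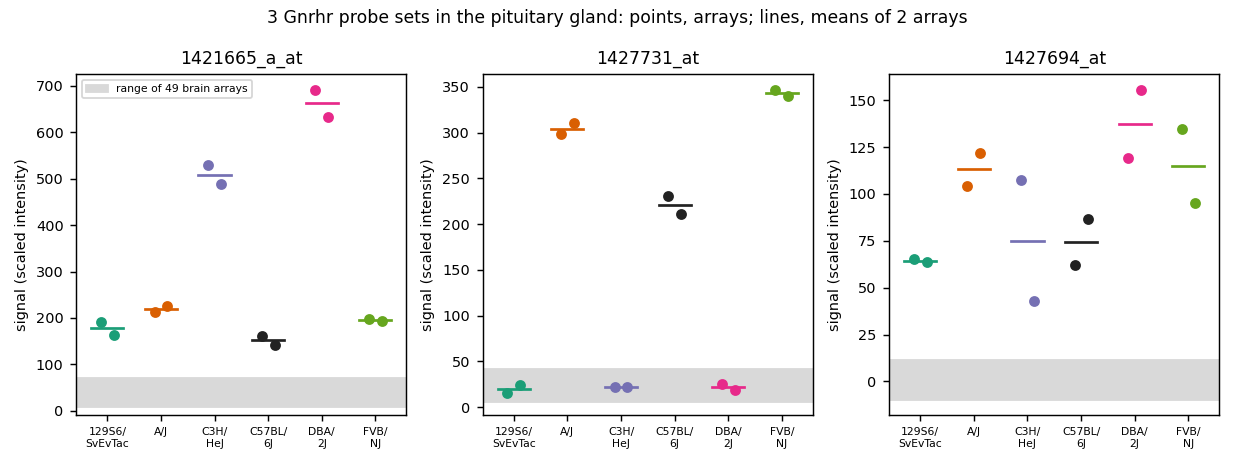
Signal (scaled intensity) of the 3 Gnrhr probe sets on the 12 gland arrays by strain, with points for arrays, lines for the mean of 2 arrays and a grey band for the range of the 49 brain arrays. DBA/2J and C3H/HeJ stand highest by 1421665_a_at at 488 to 691, and lie inside the brain range by 1427731_at.

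For the F test among strains in the gland, both Gnrhr probe sets kept their call under every alternative that was run, with adjusted p between 7.37e-14 and 0.00206. Of the single strains by 1421665_a_at, A/J lost its call in 8 of 12 fits without 1 array and under 3 other settings, FVB/NJ in 1 fit without 1 array (array 2 of its own) and with all 61 arrays in the fit, and 129S6/SvEvTac, C3H/HeJ and C57BL/6J with all 61 arrays in the fit. When the strain differences were compared between the 5 regions, both probe sets were called for the interaction (adjusted p = 1.02e-07 for 1427731_at and 0.0146 for 1421665_a_at), and neither was called among the strains in the hypothalamus (adjusted p = 0.923 and 0.384).

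Tshb, the beta subunit of thyroid-stimulating hormone, was low in the gland of 129S6/SvEvTac. Its signals were 3291 and 3544 in that strain, against 3715 to 5046 in the other 5, with 4473 and 5046 in A/J, 4110.1 and 4618 in DBA/2J, 4792 and 4728 in C57BL/6J, 4048 and 4042 in FVB/NJ and 4196 and 3715 in C3H/HeJ. Both 129S6/SvEvTac arrays lay below all others. The strain was 0.35 lower than the other 5 on the log2 scale (-0.35, SE 0.07, adjusted p = 0.0185), -0.48 against A/J (adjusted p = 0.0154) and -0.48 against C57BL/6J (adjusted p = 0.0140), and the F test among strains gave an adjusted p of 0.0249. This call was lost with no trend in the variance (adjusted p = 0.100), with scaling to 1 median (0.0838), with no filter (0.0523), with all 61 arrays in the fit (0.9996) and without any of 6 single gland arrays (0.0501 to 0.0847, namely both of 129S6/SvEvTac, both of C57BL/6J, array 2 of A/J and array 1 of FVB/NJ).

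Fshb was highest in DBA/2J at 4163 and 4264, against 3474 and 3188 in 129S6/SvEvTac and 3324 and 3656 in C57BL/6J, and 3666 to 3982 in the other 3 strains. Both DBA/2J arrays lay above all others. How often a strain stands apart like this over all probe sets was not counted, here or for Tshb. Among all strains it was not called (limma F test, adjusted p = 0.0669), though it was under 3 other settings. By pairs, 129S6/SvEvTac minus DBA/2J was -0.34 (SE 0.08, adjusted p = 0.0344) and C57BL/6J minus DBA/2J was -0.27 (adjusted p = 0.0412). Lhb had 7719 and 7620 in C3H/HeJ at the top and 5600 and 6325 in A/J and 5832 and 6116 in C57BL/6J at the bottom, and the strains between them overlapped (adjusted p = 0.145). Ghrhr had 1524 and 1445 in C3H/HeJ and 1069 and 1168 in 129S6/SvEvTac at the ends of its order, with arrays of FVB/NJ as far apart as 1554 and 1132 (adjusted p = 0.308).

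**Figure D3:**
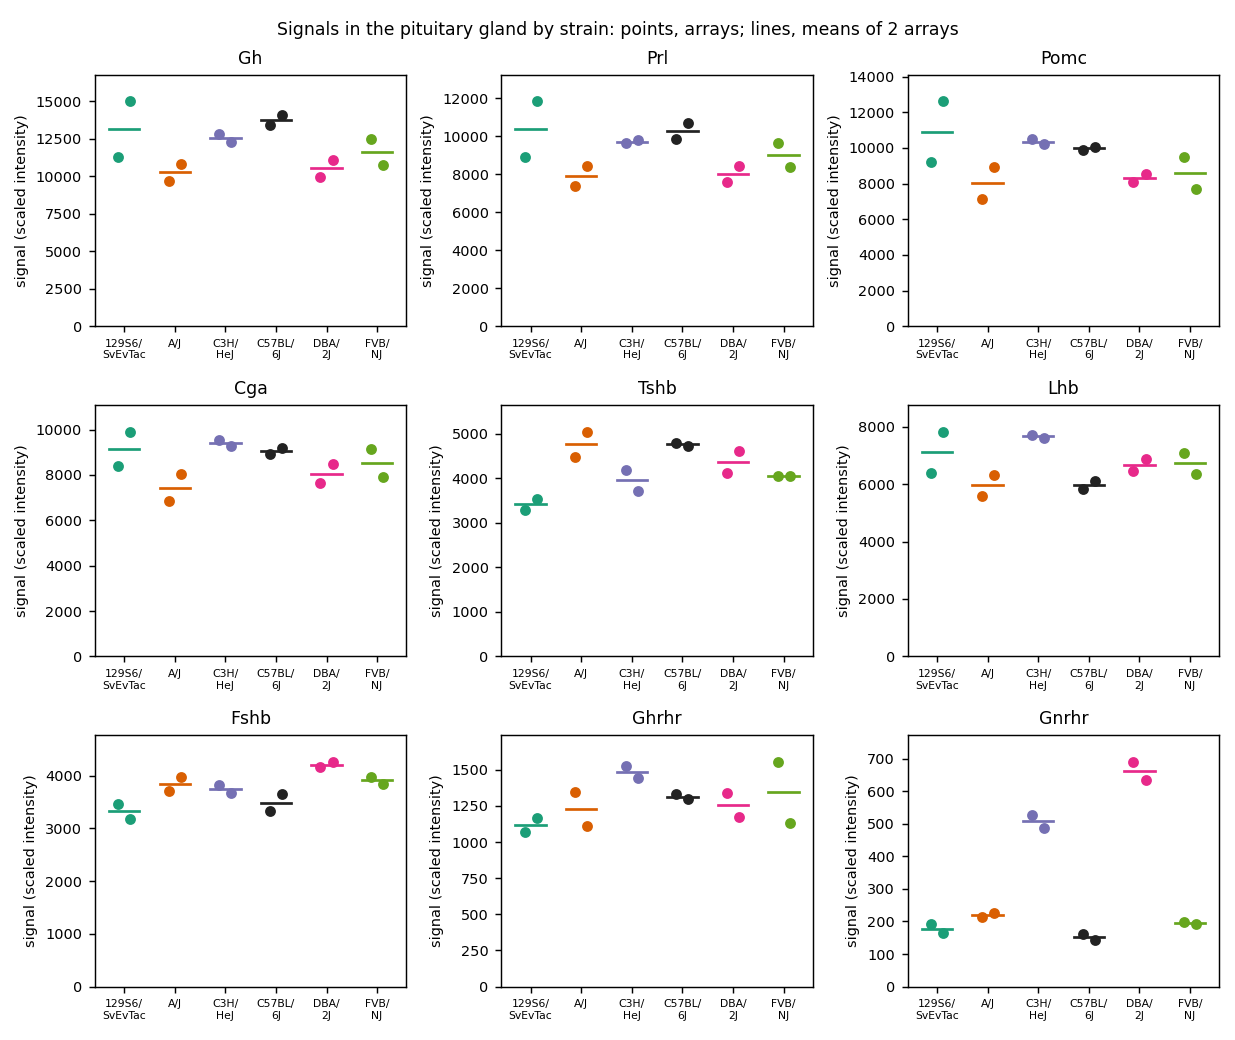
Signal (scaled intensity) of 1 probe set for each of the 9 genes on the 12 gland arrays by strain, with points for arrays and lines for the mean of 2 arrays. Tshb is lowest in 129S6/SvEvTac at 3291 and 3544, and Gnrhr, by 1421665_a_at, has the widest ratio of highest to lowest strain mean in these panels, 4.36.

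Gh, Prl, Pomc and Cga moved together from array to array, and none was called among strains (adjusted p = 0.137 to 0.183 for the 4 Gh probe sets, 0.159 for Prl, 0.207 and 0.469 for the 2 of Pomc and 0.249 for Cga). The Gh signals were 11280 and 14994 in 129S6/SvEvTac, 9669 and 10846 in A/J, 13443 and 14097 in C57BL/6J, 12809.9 and 12317 in C3H/HeJ, 9945 and 11117 in DBA/2J and 12485 and 10756 in FVB/NJ. The spread within 129S6/SvEvTac was as wide as that between strains. Array 2 of 129S6/SvEvTac was at 135% of the gland mean in Pomc, 128% in Prl and 125% in Gh, and array 1 of A/J at 76.3% in Pomc and 80.7% in Gh. The same 2 arrays were at 84.9% and 98.6% in Fshb, which did not follow. As a description over 12 arrays that share scaling and pools, Gh correlated with Prl at 0.99, Pomc (1433800_a_at) at 0.92, Cga at 0.92, Lhb at 0.46, Ghrhr at 0.19, Tshb at -0.13 and Fshb at -0.62. Without array 1 of 129S6/SvEvTac, 3 Gh probe sets were called among strains (adjusted p = 0.0292 to 0.0454) and Tshb was not (0.0847). In a fit of only the 19534 probe sets above 100 on 2 arrays, 12 of the 15 were called, against a background of 55.7%.

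**Figure D4:**
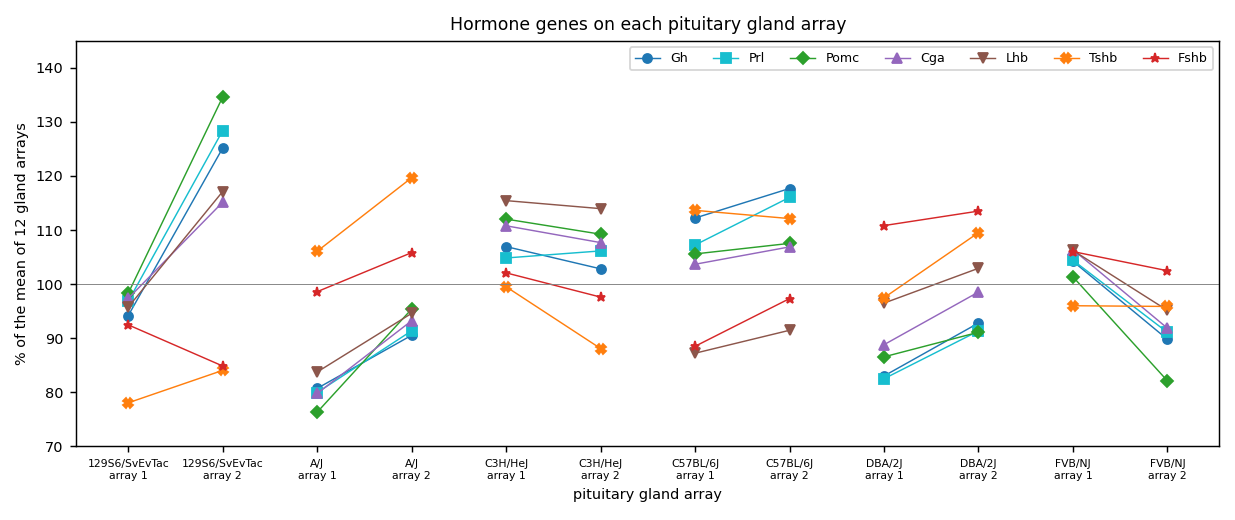
Signal of the 7 hormone genes on each of the 12 gland arrays, as a percentage of that probe set's mean over the 12 arrays, with a line joining the 2 arrays of a strain (the vertical axis starts at 70%). Gh, Prl and Pomc share their highest array, 129S6/SvEvTac array 2 at 125%, 128% and 135%, on which Fshb is at 84.9%.

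Other genes of the pathway were taken from lists by their brightest probe set. Of 15 transcription factors of pituitary lineages, 9 were called among strains in the gland, and of 19 receptors and other pathway genes 8 were, against the background of 23.2%. That background includes many dim probe sets. In a fit of only the 19534 probe sets above 100 on 2 arrays, 55.7% were called. The lists were not counted in that fit, so no excess is read from their shares. Of the 15 factors 4 were higher in DBA/2J and 1 was lower (median log2 difference 0.17, against -0.09 over all probe sets). Of all probe sets 6.64% were called there in either direction. In C57BL/6J 4 of the factors were lower and none higher, beside 13.3% of all probe sets. The list includes Egr1 and Nr4a1, immediate early genes counted again below. Not all of the 4 factors higher in DBA/2J are named here. Nr5a1, which drives gonadotroph genes, had 258 and 269 in DBA/2J, against strain means of 88.5 to 151 in the others (log2 difference 1.10, adjusted p = 4.82e-04), and Isl1, a LIM homeodomain factor, had 548 and 594, against strain means of 200 to 332 (1.09, adjusted p = 2.67e-04). Gata2, a factor of gonadotrophs and thyrotrophs, was 0.59 higher (adjusted p = 0.0186). The DBA/2J arrays of Nr5a1 and Isl1 did not overlap with any other. The factor called lower in DBA/2J was Tbx19, the corticotroph and melanotroph factor that activates Pomc. It had 291 and 336 in that strain, against 731 and 956 in 129S6/SvEvTac, where it was highest.

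In 129S6/SvEvTac 3 of the 15 factors were called higher and none lower. Of the 19 receptors and pathway genes 2 were called higher and 1 lower, beside 7.01% of all probe sets called in either direction. Tbx19 was 0.87 above the other 5 strains (adjusted p = 0.00119), Pax7, the selector of melanotroph identity, 1.17 above them with arrays at 492 and 588 (adjusted p = 0.0111), Drd2, the dopamine receptor of melanotrophs and lactotrophs, 0.62 above them with arrays at 1110 and 1682 (adjusted p = 0.0155), and Pcsk1, which cleaves the Pomc precursor, 0.59 above them (adjusted p = 8.76e-04). Of the 3 measured genes of the intermediate lobe list (Drd2, Oprm1 and Pax7), 2 were called higher in this strain and none lower, beside 7.01% of all probe sets called in either direction. These 2, Drd2 and Pax7, are the same calls as those counted above in the other lists. The summed signal of the 3 genes was 1624 and 2307 in 129S6/SvEvTac and 1477 and 1989 in A/J, against 896 to 1224 in the other 4 strains. Most of that sum in 129S6/SvEvTac was Drd2, which lactotrophs also carry. Pomc itself was at 9207 and 12607 in 129S6/SvEvTac and 7147 and 8934 in A/J, the ends of its order by 1433800_a_at, whereas C57BL/6J was highest by 1455858_x_at, and neither probe set was called among strains. The part of the intermediate lobe in these values was not tested. Dio2, the deiodinase that activates thyroid hormone in the gland, was 0.34 lower in 129S6/SvEvTac (-0.34), the strain with low Tshb. Trhr, the receptor for thyrotropin-releasing hormone, was called among strains (adjusted p = 0.0475). Crhr1, the corticotropin-releasing hormone receptor, and Ghsr, the ghrelin receptor, were not (adjusted p = 0.108 and 0.111).

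Markers of other states varied between the gland arrays as well. The summed signal of 8 immediate early genes was 4381 and 5587 in 129S6/SvEvTac, 1337 and 1478 in A/J, 3875 and 5411 in C57BL/6J, 1350 and 5028 in C3H/HeJ, 3924 and 5959 in DBA/2J and 912 and 4100 in FVB/NJ, and none of the 8 was called among strains at an adjusted p under 0.05 (limma). Of 8 neuronal genes 4 were called among strains and of 5 myelin genes none, beside 23.2% of all probe sets. In the fit of only probe sets above 100 on 2 arrays the share was 55.7%. The part of these differences in the hormone signals was not tested.

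The genes most like each member over the 12 gland arrays were found by Pearson correlation of log2 signals among 7898 candidates with a median of at least 100 and an SD of at least 0.2. For Gh they were Ctr9 (0.93), Pomc (0.92) and Tsr3 (0.90), for Prl they were Gh (0.98), Pomc (0.94) and Ctr9 (0.93), and for Cga they were Pomc (0.93), Isoc1 (0.90) and Gh (0.89). Those of Pomc were Ctr9 (0.92), Dcaf7 (0.91) and Gh (0.91). Tshb was most like Rnf214 (0.91), Zfp386 (0.91) and Ttll4 (0.90), Fshb like Dst (0.96), Sntb1 (0.94) and Ccnd1 (0.94), Lhb like Dclk1 (0.88), Src (0.86) and Ufm1 (0.84), Ghrhr like Rpap3 (0.92), Rab30 (0.91) and Hnrnpa2b1 (0.89), and Gnrhr, by 1421665_a_at, like Scrt1 (0.95), Apba1 (0.94) and Eprs (0.93). The minimum SD left 6 members out of the candidates, whose SDs were 0.199 for Prl, 0.187 for Tshb, 0.180 for Ghrhr, 0.159 for Lhb, 0.153 for Cga and 0.126 for Fshb, so that their absence from these lists was fixed by the filter. Prl, for one, correlated with Gh (1460613_x_at) at 0.99 and with Pomc (1433800_a_at) at 0.94, above any gene listed for them, and Cga correlated with that Pomc probe set at 0.93. The filter also left out Gh 1460613_x_at (SD 0.198) and Pomc 1455858_x_at, so both genes were ranked by their other probe sets. These left-out probe sets correlated with each other at 0.96, above Ctr9 for Gh. Gh by 1460613_x_at correlated with Cga at 0.92, above Isoc1. These are descriptions over 6 strains, chosen as the highest of many.

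The hormone signals of the brain arrays varied widely. Arrays above a signal of 100 numbered 26 of 49 for Gh and 25 for Pomc, by the probe sets given above, 14 for Prl, 12 for Cga, 8 for Tshb, 2 for Lhb and none for Fshb, and replicate arrays could disagree by orders of magnitude. On 8 brain arrays the floored Gh signal was more than 10 times that of a partner in the same group. The pairs were 5421 and 13.4 in C57BL/6J hypothalamus, 1547 and 27.0 in FVB/NJ hypothalamus, 2130.5 and 48.5 in C57BL/6J hippocampus, 264 and 20.3 in C3H/HeJ hippocampus, 4235 and 281 in FVB/NJ pag, 1089 and 44.4 in C3H/HeJ pag and 252 and 16.1 in A/J pag, and in C3H/HeJ bnst the arrays were at 74.9, 268 and -6.04. Other groups were high on both arrays, such as A/J hypothalamus at 3075 and 2464, A/J bnst at 1163 and 1781 and FVB/NJ bnst at 3002 and 857, or low on both, such as DBA/2J bnst at 7.89 and 7.41. Where arrays of high Gh are left out below, those 8 arrays far above a partner are meant, whatever their level. Groups that were high on both arrays kept both.

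Prl followed Gh across the 49 brain arrays (r = 0.92), Pomc and Cga less so (0.61 and 0.58) and Tshb least (0.27), values that share the scaling of each array and are given as a description. On the C57BL/6J hypothalamus array with the highest Gh, Gh was at 45.2% of the mean gland signal of its probe set, Prl at 12.7%, Pomc at 7.75%, Cga at 4.19%, Tshb at 1.60%, Lhb at 1.21% and Fshb at 0.611%. On FVB/NJ pag array 1 the order was the same at the top, with Gh at 35.3% and Prl at 10.5% ahead of Cga at 5.66%, Pomc at 5.58%, Lhb at 1.68% and Tshb at 1.41%. These are the arrays on which Fshb rose above the floor in the brain, at 23.0 and 19.8. The C3H/HeJ hypothalamus had another order, with Tshb at 21.0% and 14.3% and Cga at 5.73% and 5.35%, ahead of Gh at 0.600% and 1.15% and Prl at 0.210% and 0.288%. Fshb was not above the floor on either C3H/HeJ array. Linear percentages depend on the background of each probe set, and gland tissue in the brain samples was not tested.

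Each brain region was then set against the other 3. In the hypothalamus, 4 of the 15 probe sets were higher, against 16.3% of all probe sets: both of Pomc (2.46 and 3.34 on the log2 scale), Cga (3.31, SE 0.38, adjusted p = 4.47e-08) and Tshb (1.48, SE 0.20, adjusted p = 4.84e-07). Pomc, which arcuate neurons also express, had 282, 522 and 1080.0 (lowest, median and highest) in the hypothalamus, against medians of 87.8 in the bnst, 51.0 in the hippocampus and 95 in the pag, whose highest arrays reached 760.4, 276 and 522. The groups overlapped in part. Cga was above the floor on 10 of 12 hypothalamus arrays, against 5 of 13 in the bnst, 1 of 12 in the hippocampus and 2 of 12 in the pag. Gh and Prl had higher medians in the hypothalamus, 751 and 75.8, against 268 and 58.0 in the bnst, 44.7 and 13.2 in the hippocampus and 156 and 23.8 in the pag, but their spread left them below the threshold (1.51, SE 0.70, adjusted p = 0.110, and 1.13, SE 0.52, adjusted p = 0.112).

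The hippocampus, whose tissue alone was frozen directly, was the low end. There 9 of the 15 were lower, against 23.3% of all probe sets, namely 3 of Gh (-1.78 to -1.95), Prl (-1.49), both of Pomc (-1.57 and -1.83), Cga (-1.41), Tshb (-0.80) and Lhb (-0.48). In the pag 3 were lower (both of Pomc at -0.58 and -1.11, and Cga at -0.996), against 14.2%, and in the bnst 1 was (Tshb at -0.59), against 10.4%. Several of these calls were close to the threshold. That of Cga in the pag was lost in 32 of 49 fits without 1 array (-1.43 to -0.56) and under 5 of the other 9 settings. In the hippocampus that of Gh by 1460310_a_at was lost in 34 of the 49 (-2.28 to -1.27) and under 4 settings, by 1456595_x_at in 14 and under 1, and by 1437522_x_at in 4. With the 8 arrays of high Gh left out, 26 calls were made over the 4 regions, against 17 with all arrays. Ghrhr, Fshb and the Gnrhr probe sets were called in none of the regions with all arrays. Their brain medians were at most 24.9.

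Within the hypothalamus the strains differed in 4 of the 14 probe sets that could be tested, against 3.27% of all probe sets. That background is itself unstable, since the 1381 probe sets called became 719 to 5356 without 1 array and 413 to 4818 under other settings. The 4 were Tshb (adjusted p = 0.00377), both probe sets of Pomc (0.00680 and 0.00610) and Cga (0.0179). Tshb was high in C3H/HeJ at 884 and 602 and in A/J at 330.0 and 509, against 39.6 and 107 in 129S6/SvEvTac, 98.5 and 54.2 in DBA/2J, 67.7 and 65.5 in C57BL/6J and 40.04 and 62.1 in FVB/NJ. The 4 arrays of C3H/HeJ and A/J lay above all others. In the gland the same probe set was at 4196 and 3715 in C3H/HeJ and 4473 and 5046 in A/J, with C57BL/6J at 4792 and 4728, and the strain difference depended on region (interaction adjusted p = 0.00155).

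Pomc, by 1433800_a_at, was highest in the hypothalamus of A/J at 1051 and 1080.0 and of 129S6/SvEvTac at 867 and 851, lower in FVB/NJ at 562 and 482 and C57BL/6J at 726 and 384, and lowest in DBA/2J at 337 and 314 and C3H/HeJ at 314 and 282. The arrays of A/J and 129S6/SvEvTac lay above all others, and those of DBA/2J and C3H/HeJ overlapped each other and lay below the rest. In the gland A/J had the lowest mean of Pomc instead, though Pomc was not called among strains there. The interaction was called for both probe sets (adjusted p = 5.95e-04 and 0.0311). Cga was at 5.48 and -16.6 in 129S6/SvEvTac, below the floor on both arrays, against 486 and 567 in A/J, 493 and 460.5 in C3H/HeJ, 464 and 440.2 in DBA/2J, 361 and 59.2 in C57BL/6J and 108 and 426 in FVB/NJ. The last 2 strains had arrays far apart, and the interaction of Cga was not called (adjusted p = 0.0632).

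**Figure D5:**
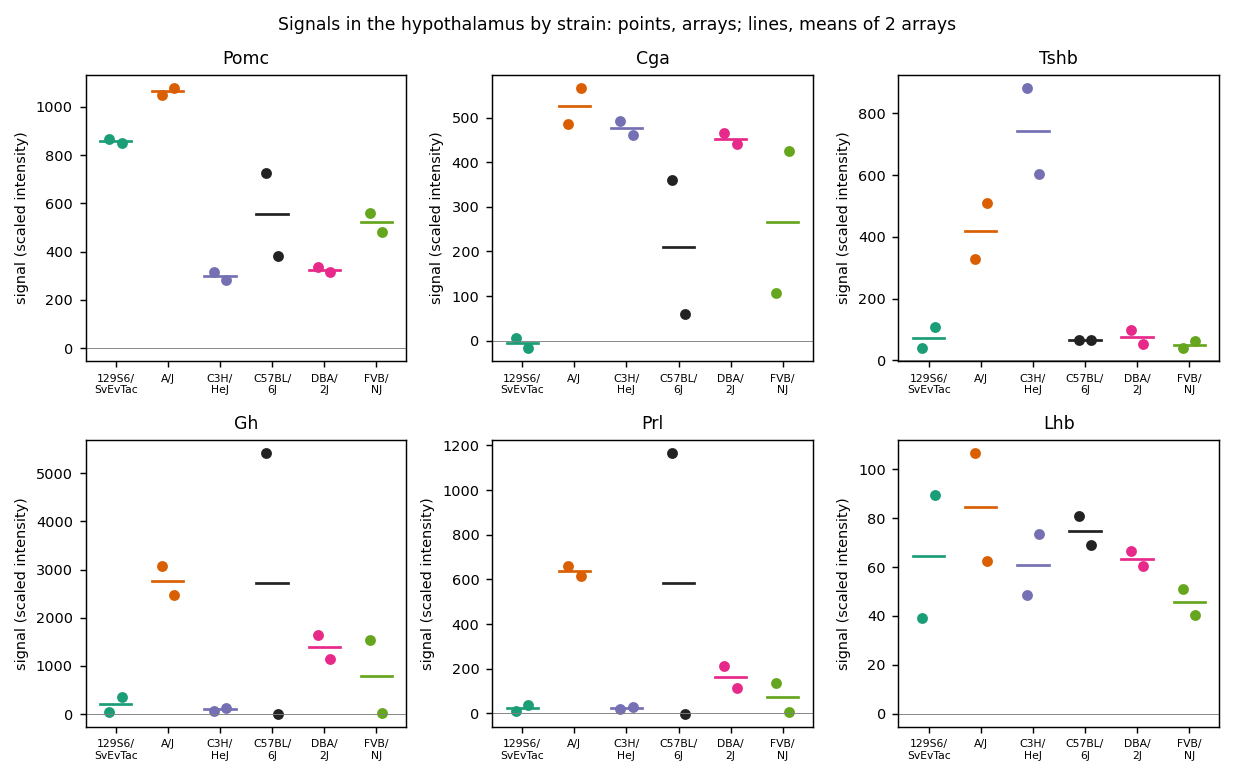
Signal (scaled intensity) of 6 of the genes on the 12 hypothalamus arrays by strain, with points for arrays and lines for the mean of 2 arrays. Tshb is high in C3H/HeJ and A/J, at 330.0 to 884, while Gh and Prl in C57BL/6J have 1 array at 5421 and 1167 and the other at 13.4 and -0.67.

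Gh in the hypothalamus was at 47.4 and 358 in 129S6/SvEvTac, 3075 and 2464 in A/J, 5421 and 13.4 in C57BL/6J, 71.9 and 138 in C3H/HeJ, 1637 and 1143 in DBA/2J and 1547 and 27.0 in FVB/NJ, and it was not called (adjusted p = 0.737). Prl was at 659 and 614 in A/J and 210.4 and 116 in DBA/2J, and at 12.2 to 35.8 in 129S6/SvEvTac and C3H/HeJ (adjusted p = 0.497). The high strains of Gh were thus not those of Tshb, apart from A/J. Of the lists, 1 of 14 tested transcription factors, none of 19 receptors and pathway genes and 1 of 10 releasing factors (Tac2) were called among strains in the hypothalamus (limma). The calls of Cga and Pomc depended on the arrays and on the settings. Cga lost its call without any of 8 single arrays (adjusted p = 0.0624 to 0.138, namely both arrays of 129S6/SvEvTac, A/J, C3H/HeJ and DBA/2J), and 1 Pomc probe set lost it without array 1 of A/J (0.0570) and the other without either array of C3H/HeJ (0.0610 and 0.0562). The call of Cga was also lost with the floor at the 40th percentile (0.1002), with no filter (0.0938) and with no trend (0.0504), and that of 1 Pomc probe set with all 61 arrays in the fit (0.0620). With the 2 hypothalamus arrays of high Gh left out, Tshb was not called (adjusted p = 0.0985) and Prl was (0.0389).

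Over all 5 regions, 5 of the 15 probe sets were called for an interaction of strain and region, against 11.3%, namely both called Gnrhr probe sets, both of Pomc and Tshb. In the study's own design, a regression of the linear signals on strain, region and their interaction, 5 were called for strain, against 38.8%: 2 of Gnrhr (adjusted p = 7.91e-21 and 4.75e-14), Tshb (2.00e-04), Fshb (5.25e-04) and Lhb (0.0477). All 15 were called for region, against 71.1%, and the same 5 as for strain were called for the interaction, against 14.1%, with Fshb at an adjusted p of 3.13e-05 and Lhb at 0.0191. The regression pools the residual spread of gland and brain arrays, which differed widely on the linear scale. The SD of Fshb was 7.27 over the brain and 323 over the gland arrays, that of Lhb 21.1 and 743. These SDs are not residual, since they include differences between strains and, in the brain, between regions. In the fit of gland arrays alone neither was called among strains (limma F test, adjusted p = 0.0669 and 0.145). With quantile normalization that test called both (0.0303 and 0.0223), as it did with only probe sets above 100 on 2 arrays (0.0164 and 0.0294). With scaling to 1 median it called Fshb (0.0483). Because of the pooled spread, the regression's p values are not read as strain differences within the gland. On the linear scale Pomc was not called for the interaction (0.103 and 0.478), as it was on the log2 scale.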

How the data were processed

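RNA was measured on 61 one-colour Affymetrix mouse genome arrays. The deposited intensity values are the signals that the authors obtained from the TeraGenomics absolute analysis, background-corrected and globally scaled, on a linear scale with 5.36% of values below 0. The version and the scaling target are not given in the sources used here, and detection calls were not used. The number of arrays limits the precision. Control probe sets (64) were left out. A gene name was used only for the 34945 of 45037 probe sets that name 1 gene (932 have several names and 9160 have none). Values under the 20th percentile (12.8) were raised to it, log2 was taken, and group means were fitted with limma 3.58.1 in R 4.3.3 (lmFit, eBayes with a trend). Strains in the gland and in the hypothalamus were compared in fits of those 12 arrays (6 residual degrees of freedom), the gland with the brain in a fit of all 61 arrays, and the brain regions in a fit of their 49. P values were Benjamini-Hochberg adjusted over the probe sets above the floor on at least 1 array of the fit, with adjusted p under 0.05 as the threshold for a call. The design of the study, a regression of linear signals on strain, region and interaction, was fitted as well. The fits were tested on simulated data.

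The probe sets named are those of the 9 genes, the brightest of each listed gene and the 3 genes most like each member. The members and the lists were chosen with earlier results of these data known. Arrays of a group came from independent animals or pools, and p values measure the spread between them. Replicate numbers were not taken to pair the arrays. Deviations of arrays with the same number correlated between -0.25 and 0.29 in the gland and between -0.42 and 0.41 over all groups. Such correlations cannot show that no pairing exists, and in the bnst the pool size went with the replicate number. Alternatives were other scalings, floors, filters and fits, a replicate block and the omission of single arrays, and, chosen after seeing the data, the omission of 8 brain arrays. Promoters were taken from RefSeq (GRCm38.p6). Figures were drawn with matplotlib 3.10.9.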

Additional observations from a re-analysis of the deposited data

Results flagged for a closer look

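The differences between strains were themselves different between the 5 regions for 5 probe sets, by the interaction test of limma, and they deserve a second look. Gnrhr was called by 1427731_at (adjusted p = 1.02e-07), where FVB/NJ, A/J and C57BL/6J were high in the gland and no strain was high in the brain, and by 1421665_a_at (adjusted p = 0.0146), where DBA/2J and C3H/HeJ were. Tshb was called (adjusted p = 0.00155), with C3H/HeJ and A/J high in the hypothalamus and 129S6/SvEvTac low in the gland. In the fit of all 61 arrays, which the interaction test uses, Tshb was not called among strains in the gland (limma F test, adjusted p = 0.9996). Pomc was called by 1433800_a_at (adjusted p = 5.95e-04) and by 1455858_x_at (adjusted p = 0.0311), with A/J high in the hypothalamus and lowest by mean in the gland. Within the gland, strains were not called for Pomc (limma F test, adjusted p = 0.207 and 0.469). The regression of linear signals did not call its interaction (adjusted p = 0.103 and 0.478). No group had enough arrays for single arrays to be tested against their group.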

How the results depend on the processing

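All 15 probe sets were higher in the gland and called for region under every alternative run. No called difference of gland against brain, of a single strain or of a brain region changed direction. The F tests have no direction, and the order of strains was not compared between alternatives. For strains in the gland the 3 calls became 5 with quantile normalization and 12 with only probe sets above 100 on 2 arrays, and 2 to 5 without single arrays, the 5 without array 1 of 129S6/SvEvTac. Calls of single strains there, 13, became 23 with the same filter on dim probe sets, and 11 to 15 without single arrays. The 22 called pairs of strains became 19 to 34 without single arrays, the 34 again without array 1 of 129S6/SvEvTac. The 17 calls of brain regions became 26 and the 5 of the interaction became 11 with the 8 brain arrays of high Gh left out, an alternative chosen after seeing the data, and 12 to 24 and 4 to 9 without single arrays, the 9 without C57BL/6J hypothalamus array 1. The 4 calls among strains in the hypothalamus became 2 to 4, with 2 without A/J array 1 or either C3H/HeJ array. In the two-factor regression, strain and interaction each went from 5 calls to between 4 and 9 without single arrays, with 8 without C57BL/6J hypothalamus array 2 and 9 without 129S6/SvEvTac gland array 1 in both, and for the interaction also 9 without 129S6/SvEvTac gland array 2 and 8 without either FVB/NJ gland array. With a replicate block the counts were 15 for gland against brain, 3 for strains in the gland, 13 for single strains, 20 for pairs, 17 for brain regions, 4 for strains in the hypothalamus, 5 for the interaction and 4, 15 and 5 for strain, region and interaction in the regression, and Cga in the pag was no longer called. The counts over all probe sets moved as well, so those of the members are not read alone. Under settings that kept every array, calls among strains in the gland numbered 6338 (no trend) to 14064, against 9941. With only probe sets above 100 on 2 arrays, 10871 of 19534 were called. Those of single strains spanned 12619 to 25093, and those of pairs 46351 to 49776, against 49882. In the regression, other settings gave 16664 to 17522 for strain and 4184 to 7113 for the interaction, against 17454 and 6341. Of the single results under alternatives that kept every array or left out those 8, 669 stayed on their side of the threshold, 14 gained and 33 lost a call, and without single arrays 2422 stayed, 5 gained and 128 lost it. The brain signals of Fshb, Ghrhr and Gnrhr are too near the floor for differences between brain regions to be read.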
